A study of Bos taurus with 12 samples.

Results

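Krüppel-like factors (KLFs) are transcription factors that bind GC-rich and CACCC elements of promoters through C-terminal zinc fingers. Here 9 of them, KLF2, KLF3, KLF4, KLF5, KLF6, KLF9, KLF10, KLF13 and KLF15, were followed in bovine muscle cells. Their rows and peaks were taken by gene symbol, and they make up 9 of the 18436 genes of the expression table, 15 of the 19739 m6A peaks of the myoblasts and 17 of the 20790 m6A peaks of the myotubes.

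The cells were primary myoblasts of the longissimus dorsi muscle, taken from 1 newborn animal of the Qinchuan cattle breed. GM were proliferating myoblasts at 80% confluence in growth medium with 20% fetal bovine serum, and DM were myotubes kept at 100% confluence for 4 days in differentiation medium with 2% horse serum. Each group had 3 input RNA-seq libraries and 3 libraries of RNA immunoprecipitated with an antibody against N6-methyladenosine (m6A), 12 samples in all, so that the comparison asks how KLF mRNA and its m6A differ between myoblasts and myotubes. Medium, serum, cell density and time changed together between GM and DM and cannot be told apart, and no label says that the 3 samples of a group came from separate animals or cultures, so p-values measure only the spread between these samples.

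KLFs fall into broad classes by the partners they recruit. KLF2, KLF4, KLF5 and KLF6 are best known as activators, KLF3 recruits the CtBP corepressors, and KLF9, KLF10 and KLF13 recruit the SIN3A corepressor. In muscle, KLF5 acts with MyoD on muscle gene regulatory regions, KLF2 and KLF4 lie downstream of the kinase ERK5 in myoblast fusion, KLF3 acts with serum response factor on muscle promoters, and KLF15 is a glucocorticoid-induced regulator of amino acid and lipid metabolism.

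The labelled cell states were checked against their marker genes. All 3 myoblast markers fell in DM, PAX7 from 1.08 to 0.0624, MYF5 from 11.8 to 2.25 and MYOD1 from 61.6 to 24.8 FPKM. FPKM is the fragments of a gene scaled to its exon length and to the mapped reads of the library. Of 6 myotube markers 4 were called higher, among them MYH3 from 273 to 659 FPKM and CKM from 10.2 to 42.5 FPKM. The other 2 were not called. MYOG was at 197 FPKM in GM and 243 FPKM in DM, and MYMK at 41.1 and 47.3 FPKM with overlap. Myotube markers were thus already expressed in GM. None of 5 fibroblast markers was called, but COL1A1 reached a mean of 6791 FPKM in GM and 7420 FPKM in DM. The summed fibroblast markers, mostly COL1A1, ranged from 7843 to 8075 FPKM in GM and from 8636 to 8893 FPKM in DM. Under the fold threshold, PDGFRA (36.9 and 44.3 FPKM) and DCN (531 and 667 FPKM) were higher in DM, with limma Benjamini-Hochberg adjusted p values of 0.00533 and 0.00321. LUM and THY1 overlapped. Whether fibroblasts were present, and their part in the KLF levels, was not tested. The summed endothelial markers stayed within 0.331 to 0.653 FPKM, with CDH5 at 0 in 3 of 6 libraries, the summed adipocyte markers within 1.37 to 1.95 FPKM, with ADIPOQ at 0 in 2 of the DM libraries, and CD68, the leukocyte marker measured here, within 0.831 to 1.94 FPKM. The adipocyte markers did not move together. In GM and DM the means were 0.153 and 0.0109 FPKM for ADIPOQ and 0.275 and 0.134 FPKM for LPL, both lower in DM. FABP4 was higher in DM (0.106 and 0.578 FPKM, no overlap), and PLIN1 overlapped (0.870 and 0.985 FPKM).

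Among the KLF genes, KLF5 and KLF13 rose in myotubes, KLF15 was higher but stayed under 1 FPKM, and KLF6 and KLF10, the most abundant KLF mRNAs of myoblasts, had nearly the same level in both states. The test covered the 12302 genes whose mean reached 0.5 FPKM, and a gene was called where limma on log2(FPKM + 1) gave p under 0.05 before adjustment together with more than 1.5-fold change on that scale, the thresholds used in the study. By that rule 2 of the 8 tested members were called, both higher in DM and none lower, against 11.9% of all tested genes (4.90% higher and 6.97% lower). At a Benjamini-Hochberg adjusted p under 0.05 alone there were 4 of 8 members, against 42.8% of all tested genes. The GM and DM values did not overlap in 5 of the 8 tested members, against 54.1% of all tested genes, and both of these shares lay near those of all genes. The median log2 fold change of the tested members was 0.26, that of all tested genes -0.05. In these bulk samples a change in the number of cells that carry an mRNA and a change in the mRNA per cell cannot be told apart.

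**Figure D1:**
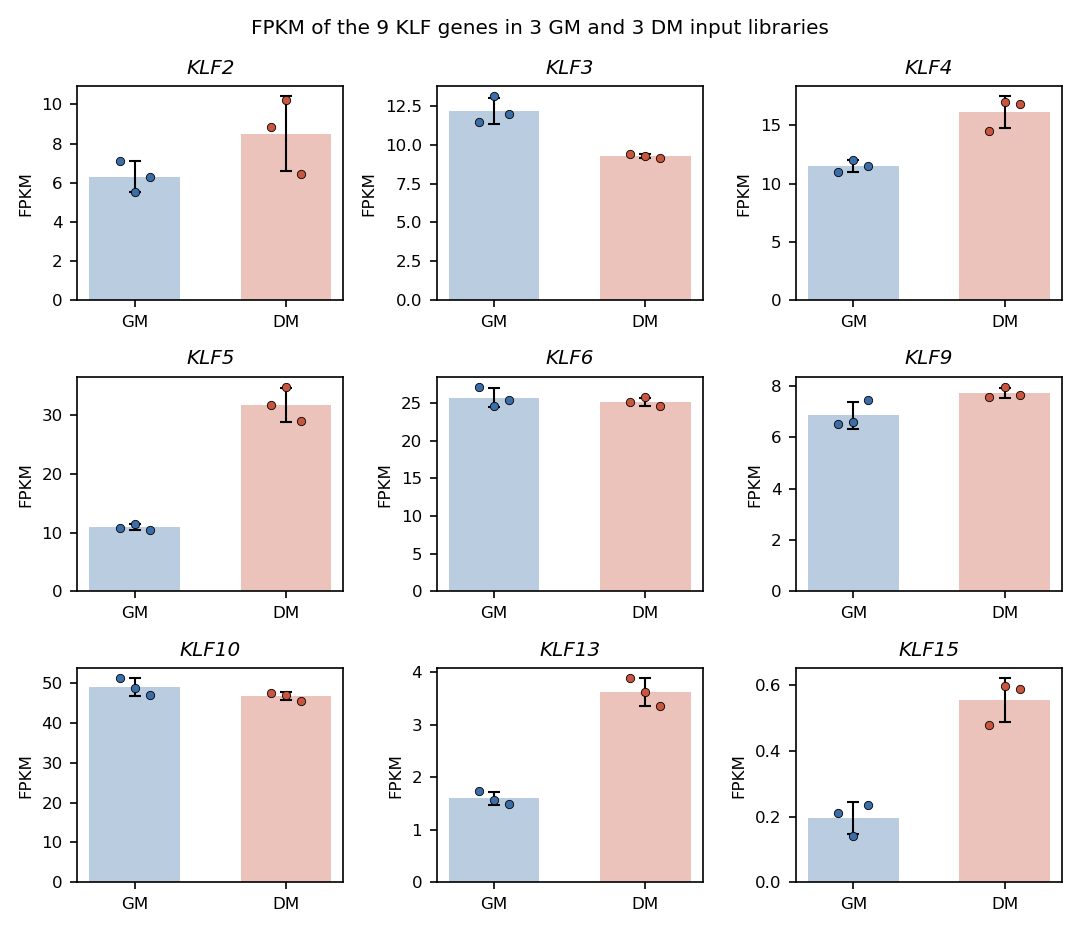
FPKM (y axis, own scale per gene) of the 9 KLF genes in the 3 GM input libraries (blue) and the 3 DM input libraries (red), with bars at the group mean and error bars of 1 SD. KLF5, KLF13 and KLF15 in DM lie above every GM value, while the 2 groups overlap for KLF2, KLF6 and KLF10.

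Among the activators, KLF5 had the largest change of the 8 tested members. It lies on the plus strand at chr12:47799472-47818754 (all positions are on ARS-UCD1.2; ENSBTAG00000002129). KLF5 measured 10.8, 11.5 and 10.5 FPKM in GM libraries 1, 2 and 3 and 31.6, 34.7 and 29.0 FPKM in DM libraries 1, 2 and 3. All DM libraries were far above all GM libraries, and the spread within a group was small beside the gap. The means were 10.9 ± 0.487 and 31.8 ± 2.88 FPKM (SD, n = 3 each), a ratio of 2.91. On the log2(FPKM + 1) scale the fold change was 1.46 (limma 95% interval 1.29 to 1.62, Benjamini-Hochberg adjusted p = 2.59e-06), the 218th largest in size of the 12302 tested genes.

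The study measured KLF5 mRNA by RT-qPCR and KLF5 m6A by IP-qPCR with a primer pair each. The oligonucleotides are shown because they define the parts of the KLF5 transcript that those assays read. Their place on the genome was not analysed here.
qKLF5-F: gagctggtccagacaagatgt
qKLF5-R: tcaggtgagtgatgtcaggga
KLF5-m6A-F: gctcctgaatacaccggatct
KLF5-m6A-R: gaattgcttcatggcggtcg
The first 3 of these oligonucleotides have 21 bases and a GC content of 52.4%, and the last has 20 bases and a GC content of 55.0%.

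KLF4, a regulator of growth arrest and pluripotency, lies on the minus strand at chr8:97174615-97179335 (ENSBTAG00000020355). Its FPKM was 11.0, 12.0 and 11.6 in GM and 14.6, 17.0 and 16.8 in DM. Every DM value was above every GM value, with means of 11.5 ± 0.497 and 16.1 ± 1.37 FPKM (SD, n = 3 each). The log2 fold change was 0.45 (limma 95% interval 0.28 to 0.61, Benjamini-Hochberg adjusted p = 0.00141), under the fold threshold, and it passed that threshold at 0.59 when FPKM was rescaled to a fixed sum per library (TPM).

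For KLF2, known for its role in endothelial quiescence, on the minus strand at chr7:6685261-6687052 (ENSBTAG00000052504), the FPKM was 7.13, 5.53 and 6.29 in GM and 8.84, 10.2 and 6.44 in DM. DM library 3 fell among the GM values while the other two were above them. KLF2 had the widest spread of the tested members in both groups, with an SD of 12.7% of the mean in GM and 22.5% in DM. The log2 fold change of 0.36 (95% interval 0.02 to 0.71) came with a limma p of 0.0402 and a Benjamini-Hochberg adjusted p of 0.0827.

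KLF6, an early response gene of wounding and growth factor signalling, lies on the plus strand at chr13:44597240-44605699 (ENSBTAG00000015188). It measured 27.1, 24.6 and 25.3 FPKM in GM and 25.0, 25.7 and 24.6 FPKM in DM, and the groups overlapped. The log2 difference of -0.03 (limma 95% interval -0.15 to 0.10, Benjamini-Hochberg adjusted p = 0.711) had a sign that depended on the scaling, since it was 0.0945 on TPM and 0.0337 with median-of-ratios size factors.

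KLF3, the CtBP-recruiting member, lies on the plus strand at chr6:57942697-57975237 (ENSBTAG00000017488). Its FPKM was 11.4, 13.1 and 12.0 in GM and 9.37, 9.26 and 9.13 in DM. All DM values were below all GM values, and the DM libraries differed by an SD of only 1.29% of their mean. The log2 fold change of -0.36 (limma 95% interval -0.50 to -0.22, Benjamini-Hochberg adjusted p = 0.00219) was under the fold threshold, and KLF3 was the one tested member with an adjusted p under 0.05 and a lower level in DM.

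Of the members that recruit SIN3A, KLF13 was called. KLF13, known as an activator of CCL5 in T cells, lies on the plus strand at chr21:27672129-27709735 (ENSBTAG00000051090). It measured 1.74, 1.58 and 1.49 FPKM in GM and 3.89, 3.63 and 3.36 FPKM in DM. The lowest DM library was well above the highest GM library, and the means were 1.60 ± 0.124 and 3.63 ± 0.261 FPKM (SD, n = 3 each), a ratio of 2.26. The log2 fold change was 0.83 (limma 95% interval 0.66 to 1.00, Benjamini-Hochberg adjusted p = 6.56e-05). KLF13 and KLF5 were the members called in each fit that left out 1 library.

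KLF10, also named TGF-beta inducible early gene, lies on the plus strand at chr14:61770129-61776507 (ENSBTAG00000014396) and was the most abundant member in both states. It measured 51.1, 48.8 and 46.8 FPKM in GM and 47.4, 46.9 and 45.4 FPKM in DM, with overlap between the groups. The log2 difference was -0.07 (limma 95% interval -0.19 to 0.05, Benjamini-Hochberg adjusted p = 0.319) and was 0.0551 on TPM, so its sign depended on the scaling. KLF9, a target of thyroid hormone and glucocorticoids on the minus strand at chr8:46586710-46611498 (ENSBTAG00000016229), measured 6.50, 6.60 and 7.44 FPKM in GM and 7.57, 7.94 and 7.63 FPKM in DM. The highest GM value lay just under the lowest DM value. Its log2 difference of 0.15 (95% interval 0.00 to 0.30) had a limma p of 0.0473 and a Benjamini-Hochberg adjusted p of 0.0944.

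KLF15 lies on the plus strand at chr22:60612131-60624486 (ENSBTAG00000008313), and its mean was under the 0.5 FPKM filter, so it was not in the fit. It measured 0.211, 0.142 and 0.236 FPKM in GM and 0.479, 0.597 and 0.589 FPKM in DM. All DM values were above all GM values at a very low level, with means of 0.196 ± 0.0484 and 0.555 ± 0.0661 FPKM (SD, n = 3 each) and a ratio of 2.83. An exact two-sided permutation test of the 3 GM and 3 DM values gave p = 0.1, the smallest that it can give with 3 against 3. It gave the same for KLF3, KLF4, KLF5, KLF9 and KLF13, the other members without overlap, and so adds nothing to the lack of overlap. In a limma fit without the filter KLF15 had a Benjamini-Hochberg adjusted p of 0.00212, with the fold change still under the threshold. The log2(FPKM + 1) difference of 0.38 understates the ratio at this level, and was 1.15 with a pseudocount of 0.1.

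**Figure D2:**
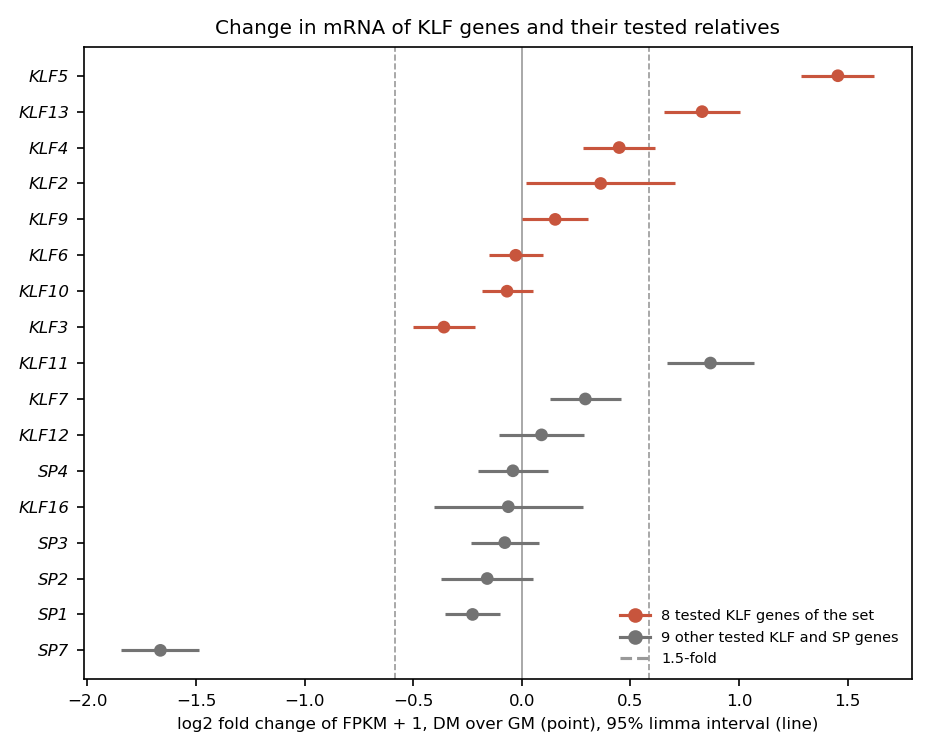
Log2 fold change of FPKM + 1, DM over GM (x axis), for the 8 tested KLF members (red) and 9 other tested KLF and SP genes (grey), with lines for the 95% limma interval and dashed lines at 1.5-fold. KLF5, KLF13 and KLF11 lie wholly to the right of the upper dashed line and SP7 wholly to the left of the lower one.

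The scaling of the libraries shifted the values. The median log2 fold change of all tested genes was -0.05 on FPKM and 0.06 on TPM, and 41.3% of the called genes were higher in DM on FPKM against 55.1% on TPM. Relative to that median, KLF5 stood at 1.51 on FPKM and 1.57 on TPM, and KLF13 at 0.88 and 1.06. KLF4 stood at 0.50 and 0.53, and KLF3 at -0.31 on both. KLF6, at 0.02 and 0.04, and KLF10, at -0.02 and 0.00, stayed close to that median on both scales.

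FPKM is per length, so levels can be set side by side between genes. In GM the order of the mean level was KLF10, KLF6, KLF3, KLF4, KLF5, KLF9, KLF2, KLF13 and KLF15. The ranges of the libraries overlapped between KLF3 and KLF4, between KLF4 and KLF5 and between KLF9 and KLF2. Within each GM library KLF3 was still above KLF4 and KLF4 above KLF5, while the order of KLF9 and KLF2 differed between libraries. In DM the order was KLF10, KLF5, KLF6, KLF4, KLF3, KLF2, KLF9, KLF13 and KLF15, with overlap of KLF3 with KLF2 and of KLF2 with KLF9. KLF5 thus went from a level slightly under KLF3 and KLF4 to the second level of the set, above KLF6 in all DM libraries.

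The summed FPKM of the 9 genes was 127.0, 123.8 and 121.6 in GM and 148.8, 156.0 and 143.0 in DM, so that every DM library had more. KLF5 made up a mean of 8.80% of that sum in GM and 21.3% in DM, while KLF10 went from 39.4% to 31.2%, KLF6 from 20.7% to 16.9% and KLF3 from 9.80% to 6.21%. The make-up therefore shifted toward KLF5, while the FPKM of KLF10 and KLF6 themselves hardly differed between GM and DM. KLF4 held 9.30% and 10.8%, KLF9 5.52% and 5.17%, KLF2 5.08% and 5.67%, KLF13 1.29% and 2.43%, and KLF15 0.158% and 0.372%.

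**Figure D3:**
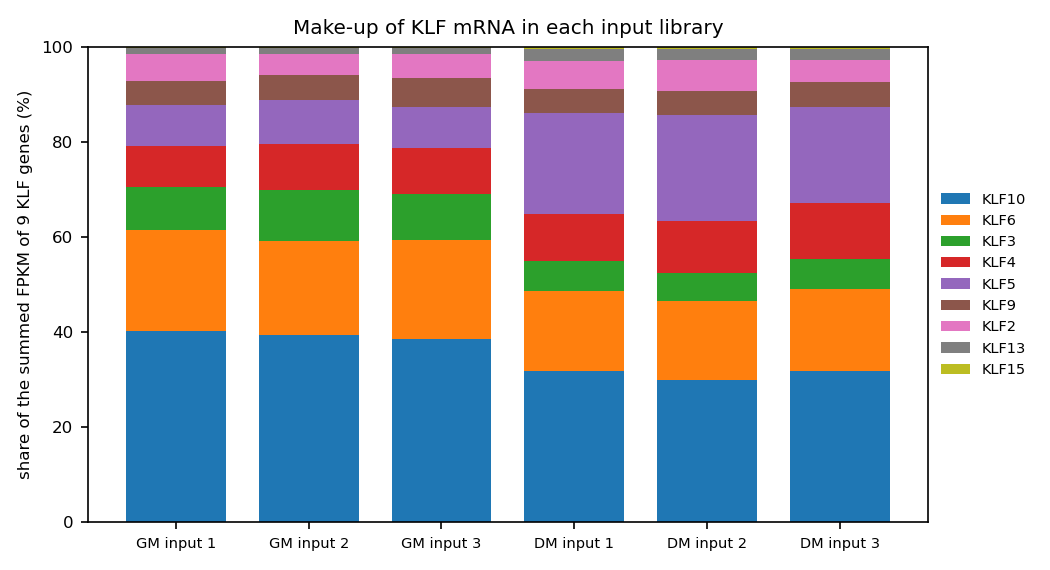
Share of the summed FPKM of the 9 KLF genes (y axis, percent) held by each gene in each of the 6 input libraries (x axis), as stacked bars. KLF5 widens from 8.51 to 9.26% in the GM libraries to 20.3 to 22.3% in the DM libraries, and KLF10 narrows from 38.5 to 40.2% to 30.0 to 31.9%.

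Beyond the 9 members, 14 of 17 further KLF and SP genes were in the table, and 9 were tested, with 1 called higher and 1 called lower. Counts called in this and the following lists stand beside 11.9% called of all tested genes. KLF11, a close relative of KLF10, rose from 4.98 ± 0.671 to 9.88 ± 0.526 FPKM (log2 fold change 0.87, limma with Benjamini-Hochberg adjusted p = 0.000117), with no overlap between groups. SP7, known as osterix and required for bone-forming cells, fell from 2.61 ± 0.166 to 0.137 ± 0.0403 FPKM (log2 fold change -1.66, limma with Benjamini-Hochberg adjusted p = 1.80e-06). KLF7 and SP1 had limma Benjamini-Hochberg adjusted p values of 0.0111 and 0.0112 at log2 differences of 0.29 and -0.23, under the fold threshold. KLF12, KLF16, SP2, SP3 and SP4 had log2 differences from -0.16 to 0.09 and none passed. KLF1, KLF14, SP6, SP8 and SP9 were under the filter, and KLF8, KLF17 and SP5 were not analysed here.

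None of the KLF partners was called. Of 14 cofactors and ubiquitin ligases (corepressors, deacetylases, acetyltransferases and ligases that mark KLFs for degradation), all tested, 6 had an unadjusted limma p under 0.05 without passing the fold threshold, where 50.7% of all tested genes had such a p, and their median log2 fold change was -0.04. Of the CtBP corepressors that KLF3 recruits, CTBP2 was at 8.69 and 6.22 FPKM in GM and DM (log2 difference -0.42, limma with Benjamini-Hochberg adjusted p = 0.00331). CTBP1 had the higher level and hardly differed, at 25.97 and 26.51 FPKM with overlap (log2 difference 0.0295, limma with Benjamini-Hochberg adjusted p = 0.707). SIN3A, the corepressor of KLF9, KLF10 and KLF13, was at 9.32 and 9.15 FPKM (log2 difference -0.02, limma with Benjamini-Hochberg adjusted p = 0.782). WWP1, a ligase that acts on KLF5, was at 11.5 and 8.78 FPKM, and FBXW7, another ligase of KLF5, at 6.07 and 7.07 FPKM. These partners were named for their role beside a member, after their values were seen.

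Of 14 upstream regulators (the ERK5 cascade with MEF2 factors, nuclear receptors, and TGF-beta receptors with SMADs), all tested, 1 was called higher and none lower, with a median log2 fold change of 0.16. MEF2C, a muscle transcription factor of the family that ERK5 activates upstream of KLF2 and KLF4, rose from 7.79 ± 0.275 to 70.1 ± 1.64 FPKM (log2 fold change 3.02, limma with Benjamini-Hochberg adjusted p = 2.36e-08). SMAD2, a transducer of TGF-beta, lay just under the fold threshold at 0.58 on the log2 scale (29.7 and 44.9 FPKM), and was named after its value was seen. NR3C1, the glucocorticoid receptor, named likewise, was at 17.1 and 17.0 FPKM.

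In the list of 7 glucocorticoid response genes, 5 were tested, 3 were called higher and 1 lower, and the median log2 fold change was 0.80. FKBP5, a cochaperone of the receptor, rose from 5.92 ± 0.359 to 15.2 ± 0.296 FPKM and SGK1, a kinase, from 33.9 ± 3.38 to 64.3 ± 6.64 FPKM, at log2 fold changes of 1.23 and 0.90. PER1, a clock gene outside the naming rule, rose from 1.19 to 2.82 FPKM. ERRFI1, a feedback inhibitor of the EGF receptor, fell from 64.1 ± 4.27 to 29.1 ± 7.22 FPKM (log2 fold change -1.14), while DUSP1, also outside the naming rule, was at 60.8 and 62.5 FPKM with overlap. Among 10 tested serum immediate early genes, 2 were called higher and none lower, with a median of 0.01. EGR2 rose from 1.22 ± 0.301 to 6.08 ± 2.10 FPKM and EGR1 from 31.3 ± 10.8 to 65.3 ± 13.2 FPKM, and both encode zinc finger factors that bind GC-rich sites.

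Of 16 reported KLF target genes in the table, 11 were tested, 1 was called higher and 2 lower, and the median log2 fold change was 0.24. FBXO32, a ubiquitin ligase of muscle atrophy, rose from 1.64 ± 0.348 to 4.66 ± 0.336 FPKM. PDGFA, a growth factor, fell from 5.48 ± 0.308 to 2.97 ± 0.242 FPKM, and PPARG, the regulator of fat cell formation, fell from 1.25 ± 0.105 to 0.482 ± 0.0197 FPKM. Their log2 fold changes were 1.11, -0.71 and -0.60. CCL5, the KLF13 target, was at 0.294 and 0.952 FPKM. Its log2 difference of 0.58 lay just under the fold threshold, so it was not called. Of the other tested targets that were not called, BCAT2, CCND1 and CEBPB were lower in DM, at log2 differences of -0.38, -0.54 and -0.14. TRIM63, SMAD7, CDKN1A and THBD were higher, at 0.47, 0.46, 0.33 and 0.24. CCL5 and these genes were named after their values were seen. Under other pseudocounts, scalings and thresholds the number called in this list ranged from 1 to 6.

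Among 488 tested genes annotated by the authors as DNA-binding transcription factors, the ones whose centred log2(FPKM + 1) profile over the 6 libraries lay nearest to KLF5 were TP63, at a Euclidean distance of 0.517, and SREBF2, at 0.580. TP63, a member of the p53 family, went from 0.185 to 3.32 FPKM, and SREBF2, the regulator of sterol synthesis genes, from 11.9 to 24.8 FPKM. At the low GM level of TP63 the log2(FPKM + 1) scale understates its ratio, so its place as nearest depends on that scale. For KLF13 the nearest were BCL6, at 0.0898 (12.7 to 23.2 FPKM), and TBX15, at 0.127 (9.81 to 18.6 FPKM). BCL6 is a zinc finger repressor and TBX15 a T-box factor of muscle and skeleton.

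The m6A lists gave every member at least 1 peak in DM and 8 of the 9 at least 1 peak in GM. The exception was KLF15, with 3 peaks in DM and none in GM. Among the tested genes, 70.9% had a GM peak, 78.7% a DM peak and 68.6% both. The lists were called on the pooled libraries of a group, so each peak has 1 fold enrichment, the ratio of IP over input, and no replicate error, and no difference between peaks was tested. The median fold enrichment of the KLF peaks was 3.39 in GM and 3.28 in DM, that of all peaks 3.27 and 3.38. Every KLF peak had a false discovery rate under 0.05. The share of all called peaks under that rate was not computed, so this cannot be read as a trait of the KLF peaks.

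The KLF peaks were long in GM, with a median of 718 exon bases against 352 for all peaks, and 419 against 421 in DM. The DM median includes the KLF15 peaks of 300, 271 and 151 exon bases, which had no GM counterpart. Summed per gene, the peaks held more exon bases in DM in KLF3, KLF4, KLF6, KLF9 and KLF10. They held fewer in KLF2, KLF5 and KLF13. By the authors' annotation, which gives a peak a single region even where it covers several exons, 6 of the 15 GM peaks lay in a 3′UTR, 5 in a 5′UTR and 4 in another exon, where all GM peaks had 42.65%, 16.08% and 41.27% in these regions. Of the 17 DM peaks, 7 lay in a 3′UTR, 4 in a 5′UTR and 6 in another exon, against 45.26%, 18.25% and 36.49% of all DM peaks.

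**Figure D4:**
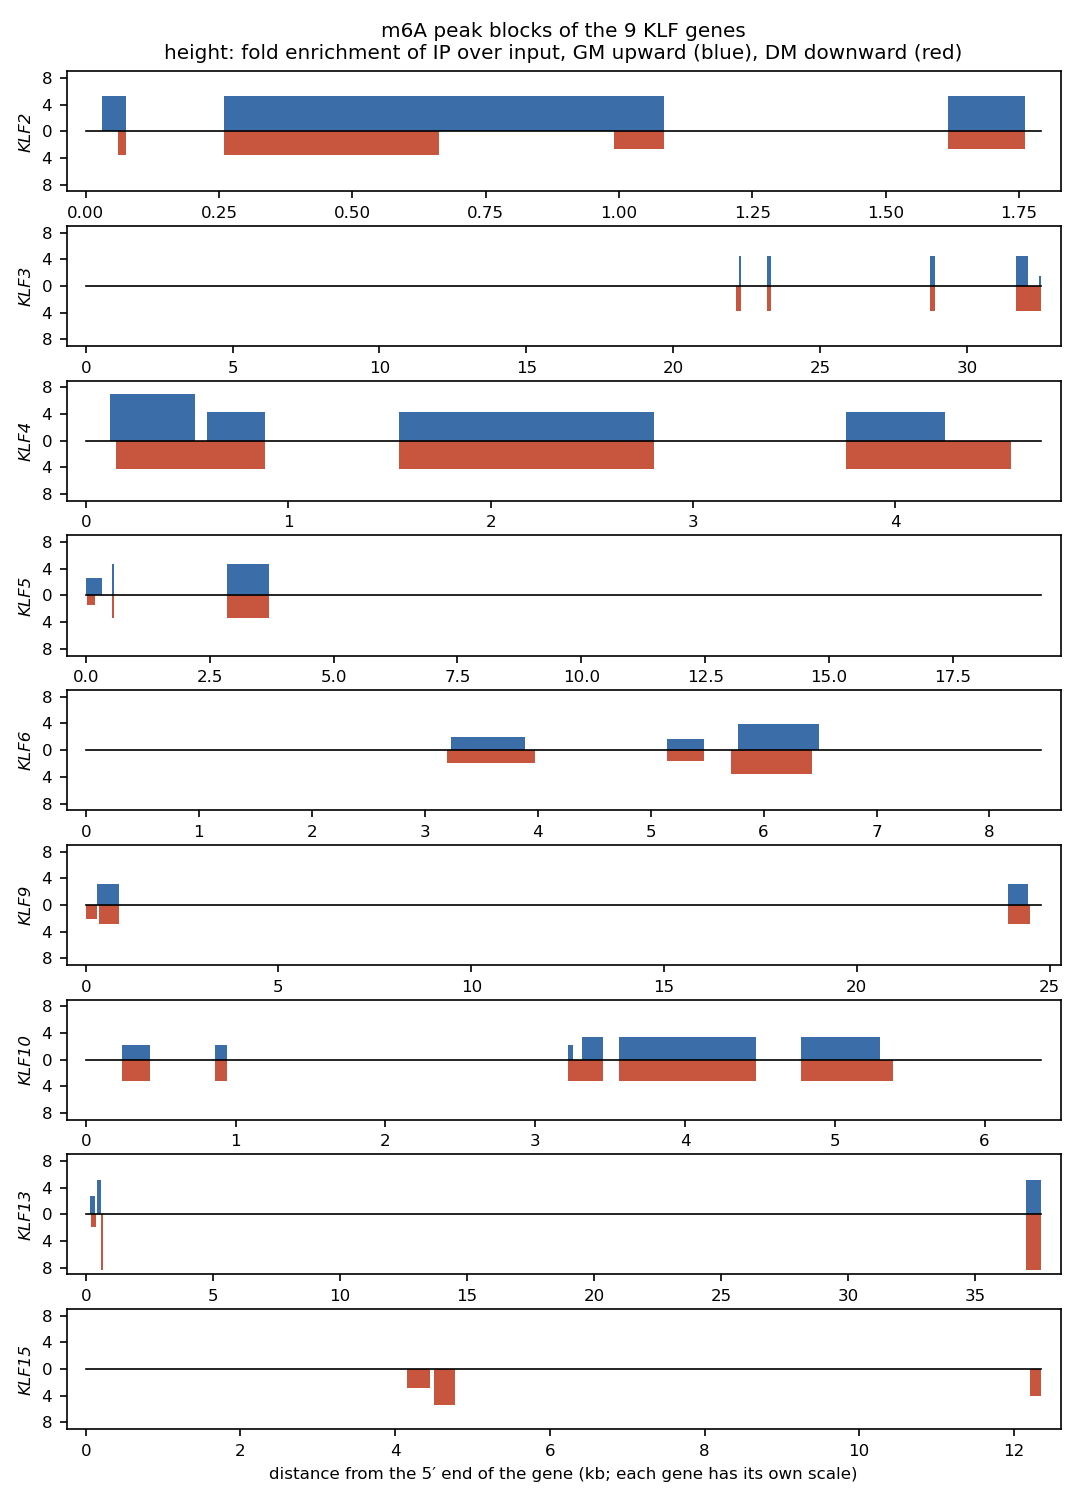
Exon blocks of the m6A peaks along each KLF gene (x axis, distance in kb from the 5′ end, own scale per gene), with GM peaks drawn upward in blue and DM peaks downward in red to the height of their fold enrichment (y axis). Blocks of one peak share 1 value. Most blocks of GM and DM face each other, while KLF15 has DM blocks only.

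In 7 cases exactly 1 GM peak overlapped exactly 1 DM peak, 2 in KLF5, 3 in KLF6 and 2 in KLF13. Of these, 3 differed by more than 1.5-fold, 1 higher and 2 lower in DM, against 25.0% of the 10239 such pairs in the whole lists (14.2% higher and 10.8% lower). Fold enrichment was lower in DM in 6 of the 7, with a median log2 ratio of -0.15 against 0.07 for all pairs. The quartiles of all pairs were -0.23 and 0.37, and the 3 KLF6 pairs, at -0.04, -0.03 and -0.15, lay between them. The 7 pairs come from 3 genes, and the share of all pairs lower in DM was not computed.

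KLF5, whose mRNA rose, had lower fold enrichment in DM at both of its peaks. The peak at its 5′ end, annotated to the 5′UTR, was at chr12:47799472-47799801 in GM with a fold enrichment of 2.69 and at chr12:47799502-47799651 in DM with 1.46, a log2 ratio of -0.88. The DM peak kept 150 of the 330 bases, and its value lay at the 8.50th percentile of all DM peaks, with a log10 false discovery rate of -2.77. This pair was lost among peaks with a false discovery rate under 0.001, among peaks with a fold enrichment of at least 2 and where both peaks had to share at least 50% of their bases. The larger peak had the same limits in both lists, chr12:47800010-47803170 with 868 exon bases, and went from 4.78 to 3.43, a log2 ratio of -0.48 that was within 1.5-fold. Of its bases, 851 lay in a single block 2848 to 3698 bases from the start of the gene, past exon 1.

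KLF13, whose mRNA also rose, had 1 peak lower and 1 peak higher in DM. The peak in exon 1 was at chr21:27672308-27672488 in GM with 2.81 and at chr21:27672338-27672547 in DM with 1.83, a log2 ratio of -0.62. Its log10 false discovery rates were -2.57 and -2.04, and the pair was lost among peaks with a false discovery rate under 0.001 or a fold enrichment of at least 2. The peak annotated to the 3′UTR, which ends at position 27709735 in both lists, had a fold enrichment of 5.11 in GM and 8.31 in DM, a log2 ratio of 0.70. This was the highest fold enrichment among the peaks of the 9 members, at the 86.7th percentile of DM peaks against the 71.8th of GM peaks before. Its last block of 625 bases at the 3′ end was the same in both lists, but the GM peak also held 153 bases of exon 1 where the DM peak held 3, so the values were averaged over 778 and 628 bases.

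KLF6 peaks were alike in GM and DM. The peak nearest the 5′ end went from 1.93 to 1.88, the second, chr13:44602383-44602712 with the same 330 bases in both lists, from 1.72 to 1.68, and the third from 3.90 to 3.52. All 3 log2 ratios lay between -0.15 and -0.03, and the third peak, downstream in the 3′UTR, carried the strongest enrichment of the gene in both states.

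In the other members the number of peaks differed between the lists. KLF2 had 1 GM peak of 1017 exon bases at 5.37, which corresponded to 2 DM peaks at 3.51 and 2.60 that covered 659 of its bases. KLF4 had GM peaks at 6.99 and 4.38 that merged into 1 DM peak at 4.20 with 2809 exon bases, the longest peak of the 9 members. The KLF4 peak at 6.99, chr8:97178797-97179216 near the start of the gene, had the highest fold enrichment of the GM peaks of the 9 members.

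KLF3 had GM peaks at 4.45 and 1.46, both in the 3′UTR by annotation, and 1 DM peak at 3.67 that covered both. KLF10 had GM peaks at 2.18 and 3.39 and 1 DM peak at 3.28 over 2037 exon bases in 5 blocks. KLF9 had 1 GM peak at 3.06 and DM peaks at 2.05 and 2.89, of which the first shared 1 base with the GM peak. In these 3 genes the DM peaks thus reached over nearly all of the GM bases, 100% in KLF3 and KLF10 and 94.6% in KLF9.

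Weighted by exon bases, the mean fold enrichment per gene was lower in DM in 6 of the 8 genes with peaks in both lists. The same share over all genes was not computed, so the count cannot be read as a trait of the KLF genes. The values in GM and DM were 5.37 and 3.18 for KLF2, 4.14 and 3.67 for KLF3, and 4.83 and 4.20 for KLF4. KLF5 had 4.20 and 3.14, KLF6 2.72 and 2.49, and KLF9 3.06 and 2.71. The exceptions were KLF10 with 3.20 and 3.28 and KLF13 with 4.68 and 6.69. The limits of the peaks differed between the lists in all of these genes for at least 1 peak, and their part in the values was not tested.

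The 3 KLF15 peaks of DM were at chr22:60616281-60616580 with a fold enrichment of 2.80, at chr22:60616640-60616910 with 5.32, both in exon 2 of 3, and at chr22:60624336-60624486, in the 3′UTR at the end of the gene, with 4.05. Their log10 false discovery rates were -2.50, -2.78 and -2.15, close to those of the KLF13 exon 1 peak (-2.04), the first KLF9 peak (-2.32) and the KLF5 5′UTR peak (-2.77) in the same list, while the other DM peaks of the members were at -20.5 or below. Among all genes under the 0.5 FPKM filter, 32.4% had a DM peak and 10.5% had one in DM and none in GM. KLF15 had more mRNA in the DM inputs than in the GM inputs, and the part of that in the peak calls was not tested.

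**Figure D5:**
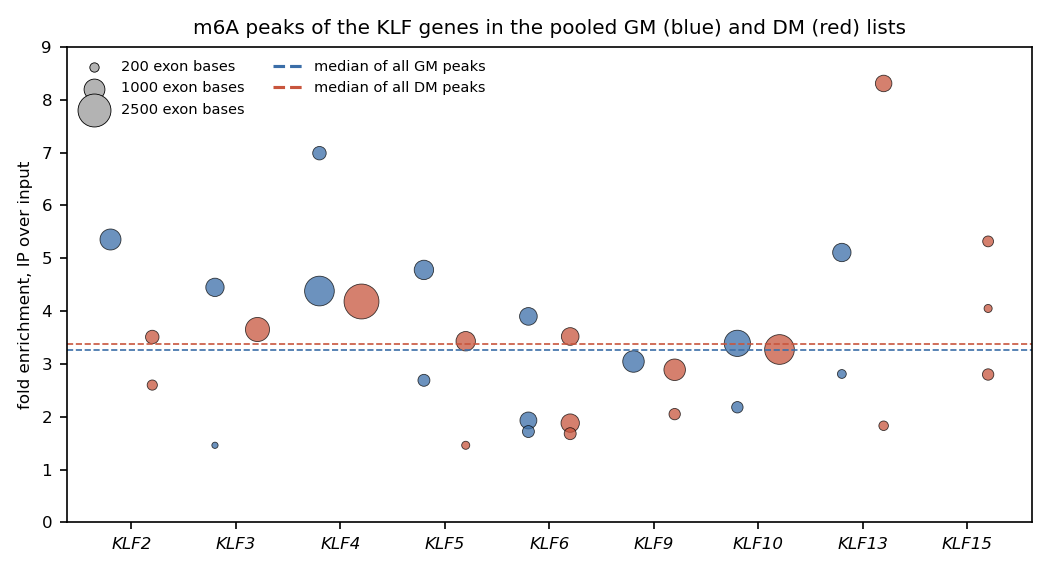
Fold enrichment of IP over input (y axis) of each m6A peak of the KLF genes (x axis) in the pooled GM list (blue) and the pooled DM list (red), with point area by exon bases and dashed lines at the median of all peaks of each list (3.27 and 3.38). The KLF13 3′UTR peak at 8.31 in DM and the KLF4 peak at 6.99 in GM stand highest, and KLF15 has points in DM only.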

How the data were processed

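Input RNA-seq and m6A-seq libraries of GM and DM (3 each) were analysed from the deposited tables. The authors trimmed strand-specific reads with Trimmomatic, aligned them to ARS-UCD1.2 with HISAT2 and computed FPKM per gene with StringTie. They called peaks with exomePeak on uniquely mapped, non-duplicated reads of the pooled libraries of each group and annotated them with ChIPseeker. Each deposited peak has a fold enrichment, the exomePeak ratio of IP to input reads. It also has a p-value, deposited without adjustment, and log10 of its false discovery rate. Versions of these tools are not given in the sources used here. The files give no read counts, so precision rests on the spread of 3 libraries per group.

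FPKM was compared with limma 3.58.1 (R 4.3.3) on log2(FPKM + 1), with a variance trend. Genes under a mean of 0.5 FPKM were left out, and p-values were adjusted by Benjamini-Hochberg across the 12302 that were tested. In the study edgeR was run on read counts, and those were not analysed here. Peaks were paired in Python 3.11.15 (pandas 2.3.3, numpy 2.4.6) where exactly 1 GM and 1 DM peak shared at least 1 exon base on the same strand, and 2 repeated entries of the DM list were kept. The code was tested on simulated data. Figures were drawn with matplotlib 3.10.9.

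The KLF genes and the gene lists were chosen with earlier results of these data known, and support nothing beyond description. Named genes were the 9 members, the tested KLF and SP genes, the 2 largest called rises and falls of each other list, and the 2 nearest transcription factors of each called member. Genes outside this rule were named after their values were seen. Alternatives covered pseudocount, filter, scaling, variance trend, replicate block, thresholds, each library left out, peak strictness, overlap and centring. The gene table holds the 29 autosomes. IP libraries enter through the peak lists alone.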

Additional observations from a re-analysis of the deposited data

How the results depend on the processing

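KLF5 was called under each expression alternative run, and KLF13 under each but the 2-fold threshold, which left 1 KLF gene, 507 of all genes, 1 other KLF or SP gene, 1 reported target and 2 glucocorticoid response genes called. That threshold was set on log2(FPKM + 1), which understates the change of KLF13 at its low level. Its FPKM ratio was 2.26, and its log2 fold change was 1.13 with a pseudocount of 0.1 and 1.11 on TPM. On TPM, KLF4 passed at 0.59, KLF6 and KLF10 turned to 0.0945 and 0.0551 on the log2 scale, and KLF15 stood at 0.73. Size factors turned KLF6 to 0.0337, and with a library left out it ranged from -0.0574 to 0.0093, the last without GM replicate 1, none past the threshold. KLF15 was at 1.15 with a pseudocount of 0.1 and 0.60 with 0.5. Upstream regulators called numbered 3 with a pseudocount of 0.1, 2 with 0.5, on TPM and with size factors, and 1 to 2 with a library left out (2 without GM replicate 3, DM replicate 1 or DM replicate 2). Reported targets called numbered 5 with either other pseudocount and 6 on TPM. Serum immediate early genes called numbered 4 on TPM and 2 to 4 with a library left out, 4 being without DM replicate 3. TPM called 970 genes higher and 792 lower, against 603 and 858 on FPKM. Leaving out each library gave 1480 to 1521 called genes, and an adjusted p under 0.05 gave 1448.

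Same-numbered GM and DM libraries did not deviate together (correlations of -0.08, -0.12 and -0.21, and no library correlated best with its own number), so the numbers were not taken as pairs. With a replicate block, 1473 genes and the same number of KLF genes, 2, were called.

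Of the KLF peak pairs, 1 was past 1.5-fold among peaks with a false discovery rate under 0.001 and 1 among peaks with a fold enrichment of at least 2, the KLF13 3′UTR pair in both cases, since the KLF5 5′UTR pair and the KLF13 exon 1 pair were lost, and 0 past 2-fold, a threshold that 1029 of all pairs passed. Centring the ratios on the median pair lowered the share higher in DM, among all pairs past 1.5-fold, from 56.9% to 47.5%. With overlap of at least 50% of both peaks the KLF5 5′UTR pair was lost, which left 2 past 1.5-fold, and KLF3, KLF9, KLF4 and KLF10 also gave a pair each, with log2 ratios of -0.28, -0.08, -0.06 and -0.05. The causes of these differences were not tested. Read depth was not analysed, 3 libraries per group limit the precision of FPKM, and peaks have no replicate error.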

Other observations

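Other KLF and SP genes also carried peaks. SP7, whose mRNA fell to 0.137 FPKM, had 3 GM peaks with fold enrichments from 2.90 to 9.80 and 4 DM peaks from 4.79 to 13.8. KLF11, whose mRNA rose, had a peak pair at 7.08 in GM and 5.82 in DM, and KLF7 one at 4.80 and 3.91. KLF1, the erythroid member, had a mean of 0.0643 FPKM in GM and 0.00901 FPKM in DM but a peak at 35.9 in GM and 22.4 in DM. KLF14 had 0.0281 and 0.122 FPKM and a peak at 7.62 and 11.7. SP9 had a GM peak alone, at 6.53, with a mean of 0.0182 FPKM in GM. Whether the KLF1 peak belongs to a neighbouring or overlapping gene was not tested, so its enrichment may not be that of KLF1 mRNA. KLF1, KLF14 and SP9 were under the expression filter and were named after their values were seen, and none of these differences was tested.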
